A study of Mus musculus with 6 samples.

Results

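The genes described here are those of the unfolded protein response and the integrated stress response, in the quadriceps of newborn mice that lack Klhl40. A list of 37 genes was matched by symbol to the array, and 35 of them had a probe among the 19057 gene symbols that the array carries. Slc7a5 and Gdf15 were not analysed here. Each gene was read from the probe with the highest mean signal, and 22 of the 35 were detected well enough to be tested. The study measured total RNA of the whole quadriceps, a thigh muscle, with Illumina bead arrays, 1 array per mouse. The Klhl40 knockout group (KO) and the wild-type group (WT) held 3 C57BL/6 mice each, all at 0 days of age, and every KO mouse was killed alongside a littermate of the WT group. Arrays of equal number are called littermates or pairs below, which is inferred, since the labels do not say that equal numbers mark a litter. Klhl40 encodes a kelch protein of striated muscle, and the sources used here do not give how its knockout allele was built. In a whole muscle, fewer cells of a type and less RNA per cell cannot be told apart.

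Cells watch protein folding in the endoplasmic reticulum (ER) with the membrane sensors IRE1 (Ern1), PERK (Eif2ak3) and ATF6 (Atf6). IRE1 splices the RNA of the transcription factor Xbp1, and ATF6 is cut free to act as a factor itself, and both raise chaperones and folding enzymes. PERK, together with the amino acid sensor GCN2 (Eif2ak4), phosphorylates the translation factor eIF2. That slows most translation and favours ATF4, which raises genes that make, import and charge amino acids. ATF4 is controlled largely at translation and XBP1 by splicing of its RNA, and probes for total transcript read neither step. In skeletal muscle these pathways are known for their activity during development, feeding changes and myopathy.

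The Klhl40 probe gave 4.79, 5.72 and 4.46 on the KO arrays, against 10.63, 10.77 and 10.76 on the WT arrays, on the log2 scale of normalised intensity used for every level below. It was detected on 1 of 3 KO arrays, and its difference of -5.73 (SE 0.29) was called by limma, at an adjusted p of 0.00114. Whether this probe lies in the deleted part of the gene was not analysed here. Each array detected 18373 to 19189 of its 45281 probes, with a median of 42 or 43 beads per probe. Muscle fibre markers were bright on every array, and their summed linear intensity was 193300 to 196300 in KO and 188100 to 193700 in WT. That sum is weighted to the brightest probes, of which Myh8 had 15.23 on every array. Of 9 markers tested, 2 had a KO minus WT difference below 0, against 50.6% of all genes tested. Myh8 did not differ, the others lay above 0, and none was called. Des, Actn2 and Mb were higher in KO without overlap, at 0.25, 0.15 and 0.48. Such an order was seen for 6.93% of all genes tested. The array WT 3 stood apart: its score was 32.4 on the leading principal component (44.2% of variance), and scores of the other 5 arrays were between -14.6 and 8.30. Among 13452 genes tested with limma, 15 were higher and 5 lower in KO at an adjusted p under 0.05, which is 0.112% and 0.0372% of them. With littermates as a block, 18 were higher and 8 lower.

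None of the 22 tested stress genes was called by limma, where the adjusted p of the members lay between 0.437 and 0.997. At an unadjusted p under 0.05 stood 5 of the 22, where 7.28% of all genes tested did. Of these, 1 was higher in KO, Ppp1r15a, where 3.9% of all genes were, and 4 were lower, Nupr1, Pdia3, Pdia4 and Herpud1, where 3.38% of all genes were. The difference, given throughout as KO minus WT on the log2 scale, was below 0 for 18 of the 22, against 50.6% of all genes tested. KO and WT values did not overlap for 8 of the 22: KO was lower for 7, where 6.42% of all genes were, and higher for 1, where 6.93% were. With littermates as a block, 8 of the 22 had an unadjusted p under 0.05, against 11% of all genes in that fit, and 0 were called. Those 8 were Ppp1r15a, Nupr1, Pdia3, Pdia4, Atf5, Xbp1, Asns and Creld2, and Herpud1 had an unadjusted limma p of 0.0522 there. Without KO 2, KO 3 or WT 2, 3 of the 22 had an unadjusted p under 0.05. The 22 are the detected genes of the list, and the count says nothing of the 13 that lay below the filter.

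**Figure D1:**
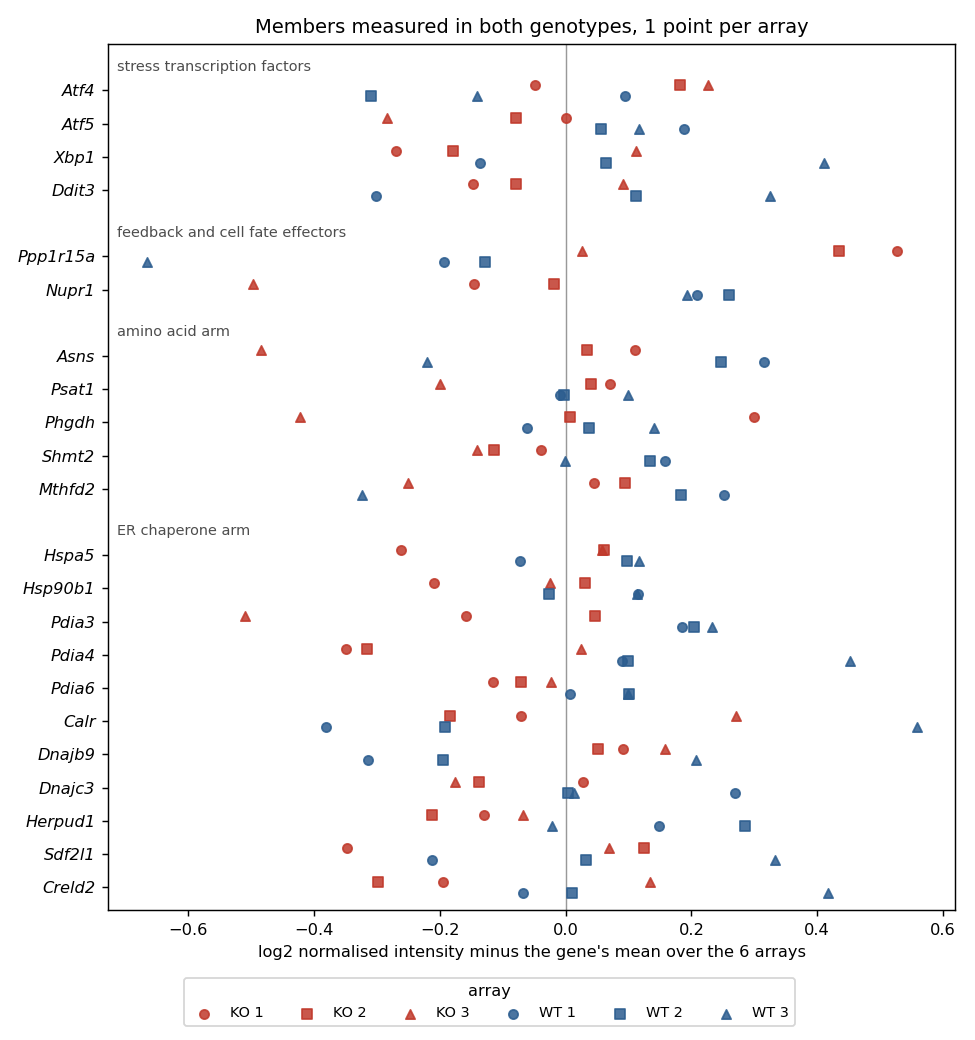
Level of each tested stress gene on each array, as log2 normalised intensity minus the gene's mean over the 6 arrays. Red marks are KO arrays, drawn above the blue WT marks of the same gene, and the marker shape gives the littermate number. Ppp1r15a is higher on all 3 KO arrays, and Nupr1, Pdia3, Pdia4, Pdia6, Herpud1, Atf5 and Shmt2 are lower on all 3.

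The sensors at the head of the pathways lay at the edge of detection. Ern1, which encodes IRE1, was detected on 1 KO and 1 WT array with its brightest probe, whose levels were 4.67, 4.79 and 5.43 in KO, against 4.59, 4.74 and 5.21 in WT. A second Ern1 probe was detected on 4 arrays and had a difference of 0.13. Eif2ak3, the PERK kinase, and Atf6 were not detected on any array. Eif2ak4, the GCN2 kinase that senses uncharged tRNA, was detected on 1 array of each group. The brightest probes of these 4 genes were below the detection filter, so the genes were not tested.

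Of the transcription factors that the sensors control, none was called. Atf4 had 10.29, 10.52 and 10.56 in KO, against 10.43, 10.03 and 10.19 in WT, so the groups overlapped through KO 1 and WT 1. Its difference was 0.24 (95% interval -0.08 to 0.55, limma adjusted p = 0.806), and a second Atf4 probe gave 0.19. Without WT 2 the Atf4 difference was 0.14. Atf5, a relative of Atf4 that is translated under the same control, had 8.99, 8.91 and 8.70 in KO, against 9.17, 9.04 and 9.10 in WT. All 3 KO values of Atf5 lay below the WT values, with a difference of -0.24 (SE 0.11, limma adjusted p = 0.708). Xbp1 had 10.38, 10.47 and 10.76 in KO, against 10.51, 10.71 and 11.06 in WT. The Xbp1 groups overlapped, yet each KO mouse was below its own littermate, by -0.13, -0.24 and -0.30 in pairs 1 to 3. The Xbp1 difference was -0.22, and leaving out 1 array moved it between -0.35 (without WT 1) and -0.08 (without WT 3). Ddit3, which encodes the stress factor CHOP, averaged 7.10 ± 0.12 in KO and 7.19 ± 0.32 in WT (SD, n = 3 each), with differences of 0.15, -0.19 and -0.23 in pairs 1 to 3, so the groups overlapped. Its difference of -0.09 (95% interval -0.48 to 0.30) had no fixed sign and was 0.05 without WT 3.

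Below these factors lie genes that end or modify the response. Ppp1r15a, the GADD34 subunit that directs a phosphatase to eIF2 and so restores translation, had 8.55, 8.46 and 8.05 in KO, against 7.83, 7.90 and 7.36 in WT. Every KO value lay above every WT value, and the difference of 0.66 (SE 0.19) is 1.58-fold. The limma adjusted p was 0.437, and it was 0.0886 with the littermate block. Within pairs the difference was 0.72, 0.56 and 0.69, although both arrays with the number 3 were the lowest of their group. Nupr1, a small chromatin-associated stress protein, had 9.09, 9.22 and 8.74 in KO, against 9.44, 9.50 and 9.43 in WT. Its KO values lay below the narrow WT range, with a difference of -0.44 (SE 0.14, limma adjusted p = 0.507), or 0.737-fold. The pair differences of Nupr1 were -0.35, -0.28 and -0.69, so KO 3 lay farthest below. These 2 genes, both placed downstream of ATF4, thus had differences of opposite sign.

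Trib3, Chac1 and Sesn2, further ATF4 targets, were below the detection filter. Chac1 encodes an enzyme that degrades glutathione, Trib3 a pseudokinase that feeds back on ATF4, and Sesn2 a leucine sensor that restrains mTORC1. Chac1 was detected on WT 3 and on no other array. Its bead intensity there was 218 with a bead standard error of 9.88 over 22 beads, whereas it was 107, 109 and 117 in KO and 111 and 110 in the other WT mice. Sesn2 was likewise detected on WT 3 alone, at 140, against 113 to 116 on the other arrays. Trib3 reached 143 on WT 3, against 113 to 119 elsewhere, and was also detected on KO 3. WT 3 exceeded the highest other array by 2.11 for Chac1, 0.82 for Sesn2 and 0.78 for Trib3 on the normalised log2 scale. Of 19057 genes, 261 (1.37%) stood at least 0.5 above all other arrays on WT 3, where 8 to 26 genes did so on each of the other 5 arrays. WT 3 is also the array with the highest adipocyte markers, given below, and their part in these 3 levels was not tested.

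**Figure D2:**
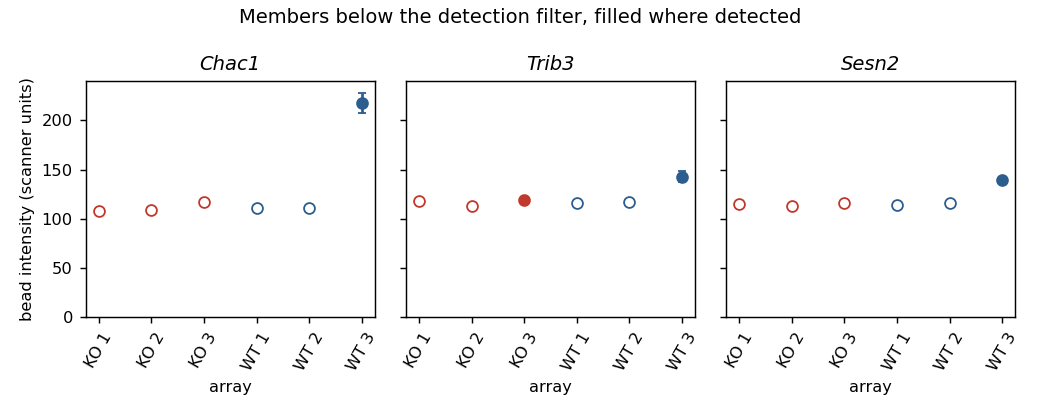
Bead intensity of Chac1, Trib3 and Sesn2 in scanner units, 1 point per array with the standard error over its beads, red for KO and blue for WT. Filled points have a detection p under 0.05. WT 3 is the highest array for all 3 genes, at 218 for Chac1, where the other arrays lie between 107 and 117.

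ATF4 binds DNA with C/EBP partners at elements with the core TGATGCAA. This core was searched on both strands of the 250 bases before each annotated start (RefSeq, GRCm38.p6), and 0.791% of 32851 such promoters hold it. Among the 33 stress genes with a promoter in that table, 5 did: Chac1, Nupr1, Slc7a11, Fgf21 and Herpud1. The wider form TGATGNAAN, which overlaps that core, occurred in 3.44% of promoters and in 6 of the 33, Asns being added. The windows below show it for the genes whose levels stand out above and for Asns. The capitals mark the match, which lies on the opposite strand in Chac1, Nupr1 and Herpud1. They lie at chr2:119351024-119351081 (+), chr7:126625548-126625605 (-), chr8:94386292-94386349 (+) and chr6:7693210-7693257 (-) in the order given. A match describes the letters and does not show that a factor binds.
Chac1: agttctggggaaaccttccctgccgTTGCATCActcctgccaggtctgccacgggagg
Nupr1: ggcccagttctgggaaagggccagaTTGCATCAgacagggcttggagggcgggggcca
Herpud1: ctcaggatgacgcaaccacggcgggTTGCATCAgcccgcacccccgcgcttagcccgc
Asns: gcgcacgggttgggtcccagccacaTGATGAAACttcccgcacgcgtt
Nupr1 and Herpud1, the tested genes with this core, had all 3 KO values below the WT values. That order held for 7 of the 22 tested stress genes and for 6.42% of all genes tested. A link between the core and the order was not tested. Chac1, below the filter, was detected on WT 3 alone, and Slc7a11 and Fgf21 were not tested. Ppp1r15a holds no copy in this window, but it holds the cyclic AMP response element TGACGTCA, shown in capitals at chr7:45526269-45526305 (-). That element occurred in 1.55% of promoters and in no other of the 33 genes.
Ppp1r15a: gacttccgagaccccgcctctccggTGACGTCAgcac

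The amino acid arm had small differences, all below 0 and none called. Of its 8 genes 5 were tested, with differences between -0.23 and -0.06 and a median of -0.08, against -0.002 over all genes tested. Asns, which makes asparagine, had 11.29, 11.21 and 10.69 in KO, against 11.49, 11.42 and 10.95 in WT. The groups overlapped because both mice of pair 3 were low, but each KO mouse lay below its littermate by a similar step, at -0.21, -0.21 and -0.26. The Asns difference was -0.23 (95% interval -0.70 to 0.24, limma adjusted p = 0.903), and its other detected probes gave -0.25 and -0.09. Without KO 3 the Asns difference was -0.05, and without WT 3 it was -0.40. Shmt2, the mitochondrial serine hydroxymethyltransferase, had 6.74, 6.67 and 6.64 in KO, against 6.94, 6.92 and 6.78 in WT, without overlap and with a difference of -0.19 (SE 0.10, limma adjusted p = 0.734). The serine synthesis enzymes Phgdh and Psat1 had differences of -0.08 (95% interval -0.50 to 0.34) and -0.06 (95% interval -0.31 to 0.19). Both rested on KO 3, the lowest array for each: without it the differences were 0.12 and 0.03, and the median of the arm was 0.03. Mthfd2, the mitochondrial one-carbon dehydrogenase, had a difference of -0.07 (95% interval -0.48 to 0.33). The brightest probe of the cystine transporter gene Slc7a11 was detected on 2 KO arrays and no WT array, at 4.67 to 4.93 in KO and 4.71 to 4.83 in WT. Another Slc7a11 probe was detected on WT 1 alone, so the probes gave no common order of the groups. Slc3a2, the heavy chain of the same transporter, and the secreted factor Fgf21 were not detected on any array.

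Some amino acid genes also varied with the replicate number. Both arrays with the number 3 lay below the other 4 arrays for Asns and Mthfd2, which was so for 16.2% of all genes tested. The aminoacyl-tRNA synthetases, which charge tRNA and are known ATF4 targets, showed the same order: 7 of 11 tested (63.6%) lay lower on KO 3 and WT 3 than on all other arrays. For example, Nars had 8.62, 8.62 and 7.94 in KO, against 8.55, 8.59 and 7.99 in WT, and Iars had 9.37, 9.13 and 8.96 in KO, against 9.59, 9.58 and 8.65 in WT. These 2 examples were chosen after their values were seen. Between genotypes the synthetases did not separate, with a median difference of 0.01, 5 of 11 below 0, and none called. The smallest p values were those of Wars at 0.23 (SE 0.10, limma adjusted p = 0.684) and Gars at -0.19 (SE 0.12, limma adjusted p = 0.839). WT 3 was thus among the low arrays for Asns and most synthetases and was the one array with a detected Chac1 signal. All of these are known ATF4 targets.

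**Figure D3:**
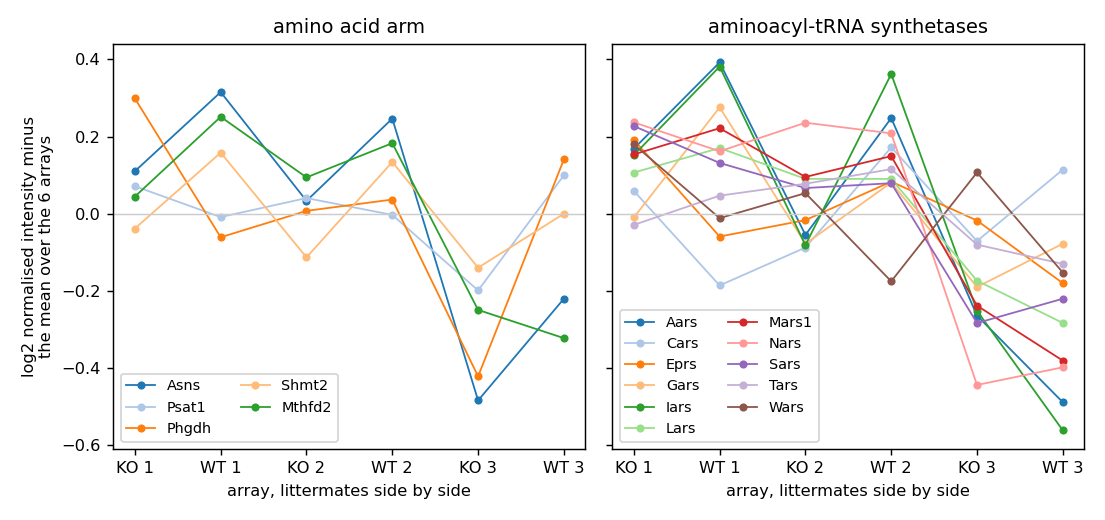
Level of each tested amino acid arm gene (left) and aminoacyl-tRNA synthetase (right) on each array, as log2 normalised intensity minus the gene's mean over the 6 arrays, with KO left of the WT array of the same number. Asns, Mthfd2 and 7 of the 11 synthetases are lower on both arrays of pair 3 than on the other 4 arrays.

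The ER chaperone arm had the lower median difference of the 2 arms, and none of its genes was called. Of 14 genes 11 were tested, 9 had a difference below 0, and the median was -0.14, with differences from -0.43 to 0.20. Each KO mouse was below its own littermate for 7 of the 11, where 16.6% of all genes tested were. The median of the arm stayed between -0.18 and -0.11 without each array in turn, and was -0.11 without WT 3. The summed linear intensity of the 11 genes was 4988 to 5223 in KO and 5983 to 6132 in WT, without overlap. That sum is weighted to the bright Pdia3 and Herpud1 probes. The median deviation of the 11 genes from their means over all arrays weighs each gene equally. It was -0.16, -0.07 and 0.02 in KO and 0.01, 0.03 and 0.21 in WT. On that measure the groups overlapped, with KO 3 above WT 1.

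Protein disulfide isomerases form and rearrange disulfide bonds. The 3 in this arm all lay lower in KO without overlap, where 6.42% of all genes tested did. Pdia4 had 7.48, 7.51 and 7.85 in KO, against 7.92, 7.93 and 8.28 in WT, and the pair differences of -0.44, -0.41 and -0.43 were nearly equal. Its difference was -0.43 (SE 0.15, limma adjusted p = 0.569), or 0.744-fold, with an adjusted p of 0.195 under the littermate block in limma. Pdia3, which works on glycoproteins held by calnexin and calreticulin, had 10.42, 10.62 and 10.07 in KO, against 10.76, 10.78 and 10.81 in WT. The WT mice were close together and the KO mice spread below them, with a difference of -0.42 (SE 0.15, limma adjusted p = 0.572) that was -0.27 without KO 3. Pdia6 had 5.61, 5.65 and 5.70 in KO, against 5.73, 5.82 and 5.82 in WT, a difference of -0.14 (SE 0.09, limma adjusted p = 0.839) near background. A second, dimmer Pdia6 probe gave 0.003 with groups that overlap.

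Herpud1, a membrane protein that assists degradation of ER proteins, had 10.80, 10.72 and 10.86 in KO, against 11.08, 11.21 and 10.91 in WT. Every KO value of Herpud1 was below every WT value, but KO 3 and WT 3 differed by only -0.05, against -0.28 and -0.50 in the other pairs. The Herpud1 difference was -0.27 (SE 0.11, limma adjusted p = 0.656), and its second probe gave -0.33. The chaperone Hsp90b1, known as GRP94, had 9.73, 9.97 and 9.91 in KO and 10.05, 9.91 and 10.05 in WT, so the groups overlapped, with a difference of -0.13 (95% interval -0.38 to 0.11) that was -0.06 without KO 1. Dnajc3, an inhibitor of PERK and co-chaperone of BiP, had 7.76, 7.60 and 7.56 in KO, against 8.01, 7.74 and 7.75 in WT. Its groups overlapped by KO 1, and the difference was -0.19 (95% interval -0.46 to 0.08), or -0.10 without WT 1. The secreted stress protein gene Creld2 had 6.75, 6.64 and 7.07 in KO, against 6.87, 6.95 and 7.36 in WT. Both Creld2 mice of pair 3 were high, each KO mouse was below its littermate, and the difference was -0.24 (95% interval -0.63 to 0.15), with -0.20 from the second probe. Without WT 3 the Creld2 difference was -0.09.

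Calr and Dnajb9 were the 2 genes of the arm with a difference above 0. Dnajb9, a co-chaperone that returns IRE1 to its resting state, had 7.92, 7.88 and 7.99 in KO and 7.51, 7.63 and 8.04 in WT. The groups overlapped through WT 3, the difference was 0.20 (95% interval -0.14 to 0.54), and a second probe near background gave -0.18. Leaving out 1 array moved the Dnajb9 difference between 0.09 (without WT 1) and 0.36 (without WT 3). Calr, the calcium-binding lectin calreticulin, had 7.21, 7.09 and 7.55 in KO and 6.90, 7.09 and 7.84 in WT. Its difference of 0.01 (95% interval -0.56 to 0.58) took either sign across processing choices, at -0.004 without background correction and -0.04 with median centring. Hspa5, which encodes the master chaperone BiP, and Sdf2l1, its partner in the ER lumen, were detected on 2 KO and 2 WT arrays each. Hspa5 had 4.51, 4.83 and 4.83 in KO and 4.69, 4.86 and 4.88 in WT, and Sdf2l1 had a difference of -0.10 (95% interval -0.52 to 0.31). The Hspa5 difference was -0.09 (95% interval -0.38 to 0.19), and -0.03 without background correction. Its probe had bead intensities of 111 to 120, near background, so little can be said of a change in the BiP gene. Canx, Manf and Hyou1, each read by a single probe, were not detected on any array. For these genes an absent transcript and a probe that does not respond cannot be told apart.

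**Figure D4:**
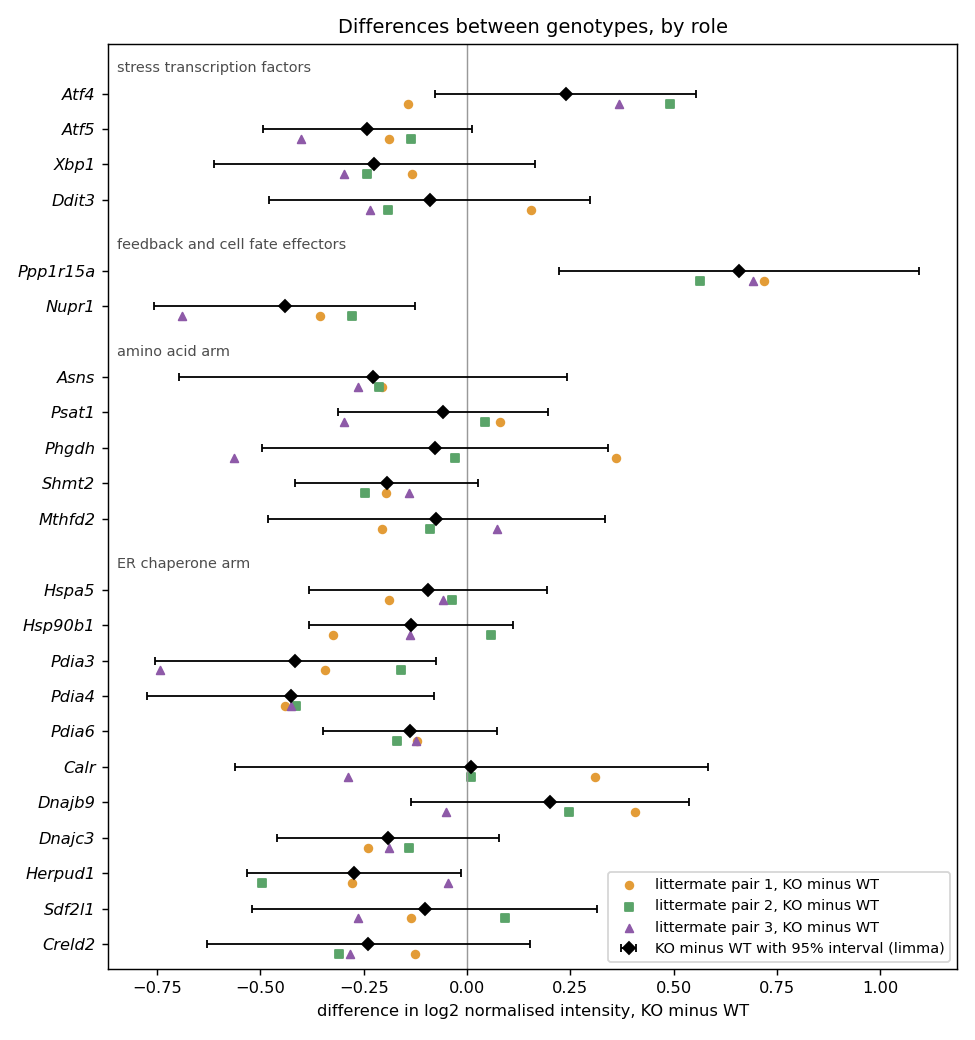
Difference in log2 normalised intensity, KO minus WT, for each tested gene by role, with the 95% interval from limma (black) and the difference within each littermate pair (coloured). Intervals of Ppp1r15a, Nupr1, Pdia3, Pdia4 and Herpud1 leave out 0, and the 3 pairs of Pdia4 lie within -0.44 and -0.41.

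ATF6 and XBP1 act on chaperone genes through the ER stress response element, which reads CCAAT, 9 free bases and CCACG. It was present in 0.113% of the 32851 promoters on either strand, and in 7 of the 12 chaperone arm promoters: Hspa5, Hsp90b1, Pdia6, Calr, Canx, Dnajc3 and Creld2. None of the other 21 stress genes with a promoter held it. Windows from genes of the arm follow, with each match in capitals. Hspa5 and Dnajc3 carry it on the gene's strand, Creld2 on the opposite strand, and Hsp90b1 carries 1 copy on each. Herpud1 holds the second form of the element instead, which reads ATTGG, 1 free base and CCACG and which 0.0304% of promoters hold. The windows lie at chr2:34772000-34772068 (+), chr14:118937802-118937870 (+), chr15:88819495-88819563 (+), chr10:86705508-86705681 (-) and chr8:94386352-94386412 (+) in the order given.
Hspa5: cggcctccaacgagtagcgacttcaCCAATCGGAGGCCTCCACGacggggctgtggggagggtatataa
Dnajc3: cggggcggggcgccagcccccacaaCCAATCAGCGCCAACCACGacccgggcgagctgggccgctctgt
Creld2: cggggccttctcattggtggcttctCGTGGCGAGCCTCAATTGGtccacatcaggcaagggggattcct
Hsp90b1: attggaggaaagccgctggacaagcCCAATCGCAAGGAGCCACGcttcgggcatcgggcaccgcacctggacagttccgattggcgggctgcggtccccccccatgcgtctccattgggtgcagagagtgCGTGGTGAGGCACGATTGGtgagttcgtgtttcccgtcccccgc
Herpud1: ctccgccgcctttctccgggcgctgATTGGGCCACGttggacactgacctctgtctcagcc
The 6 tested genes of the arm that hold the first form of the element had differences between -0.24 and 0.01 with a median of -0.14, and the 5 without it, Herpud1 among them, had differences between -0.43 and 0.20 with a median of -0.27. No test was made between these sets. Pdia3 and Pdia4, the genes of the arm with the lowest differences, are among those with no match in this window.

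Set side by side, the chaperone arm had a median difference of -0.14 and the amino acid arm one of -0.08, against -0.002 over all genes tested. No test of a difference between the arms was made. The chaperone median kept its sign under all 16 other settings, and the amino acid median was 0.03 without KO 3 and -0.24 without WT 3. On KO 3 and WT 3 the median gene of the chaperone arm lay at 0.02 and 0.21 from its mean over all arrays, and that of the amino acid arm lay at -0.25 and near 0.

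Related genes outside the list gave a fuller view of each branch. Other ER folding and translocation genes resembled the chaperones: 12 of 15 tested had a difference below 0, against 50.6% of all genes tested. The median was -0.14, and 0 were called. At an unadjusted p under 0.05, 4 were lower in KO, where 3.38% of all genes were, and 0 higher, where 3.9% were. Fkbp11, an ER prolyl isomerase, had 8.39, 8.46 and 8.45 in KO, against 8.78, 8.74 and 8.85 in WT, a difference of -0.36 (SE 0.09, limma adjusted p = 0.354). The disulfide isomerase relative Txndc5 had 9.64, 9.79 and 9.80 in KO, against 10.30, 10.06 and 10.15 in WT, a difference of -0.42 (SE 0.11, limma adjusted p = 0.354). KO and WT values overlapped in neither gene. The other 2 were P4hb, the main disulfide isomerase and a subunit of collagen prolyl hydroxylase, at -0.32 (SE 0.09) and Pdia5 at -0.33 (SE 0.11), named after their values were seen.

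Genes of ER-associated degradation, which removes misfolded proteins, lay near the middle of all genes, with a median of -0.05 and 10 of 14 below 0. None had an unadjusted p under 0.05, and the smallest p values were those of the ubiquitin-conjugating enzymes Ube2g2 at 0.48 (SE 0.24, limma adjusted p = 0.747) and Ube2j1 at 0.19 (SE 0.13). Other factors and proteases of the unfolded protein response had a median of -0.04 over 9. The ER-bound factor Creb3 was at 0.26 (SE 0.10, limma adjusted p = 0.623), and the ER membrane cell-death regulator Tmbim6 at -0.24 (SE 0.10, limma adjusted p = 0.663).

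The eIF2 complex and other factors of the integrated stress response lay on the opposite side, with a median of 0.14 and 0 called. Of 17 differences 14 were above 0 and 3 below, where 50.6% of all genes tested were below. KO was higher in all 3 pairs for 4 of the 17, where 17.2% of all genes tested were. Atf3, a factor that ATF4 and growth signals induce, had 6.52, 6.48 and 6.96 in KO, against 5.40, 5.75 and 5.75 in WT, a difference of 1.02 (SE 0.16, limma adjusted p = 0.102). With array weights Atf3 was called, at an adjusted p of 0.0453 in limma, and over all its alternatives the adjusted p was 0.0453 to 0.365. Stc2, a secreted glycoprotein induced by stress, had 5.96, 6.21 and 6.08 in KO, against 5.61, 5.86 and 5.54 in WT, a difference of 0.42 (SE 0.12, limma adjusted p = 0.479). Among other amino acid supply genes, 5 were above and 5 below 0. The glycine transporter Slc6a9 had 6.34, 6.51 and 6.41 in KO, against 6.81, 6.88 and 7.03 in WT, a difference of -0.49 (SE 0.10, limma adjusted p = 0.239). Aldh1l2, a mitochondrial folate enzyme, was at -0.37 (SE 0.09, limma adjusted p = 0.354). All 8 mitochondrial stress genes had differences between 0.006 and 0.08, and none was called, with Dnaja3 at 0.06 and the protease Lonp1 at 0.08, where the median over all genes tested was -0.002.

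**Figure D5:**
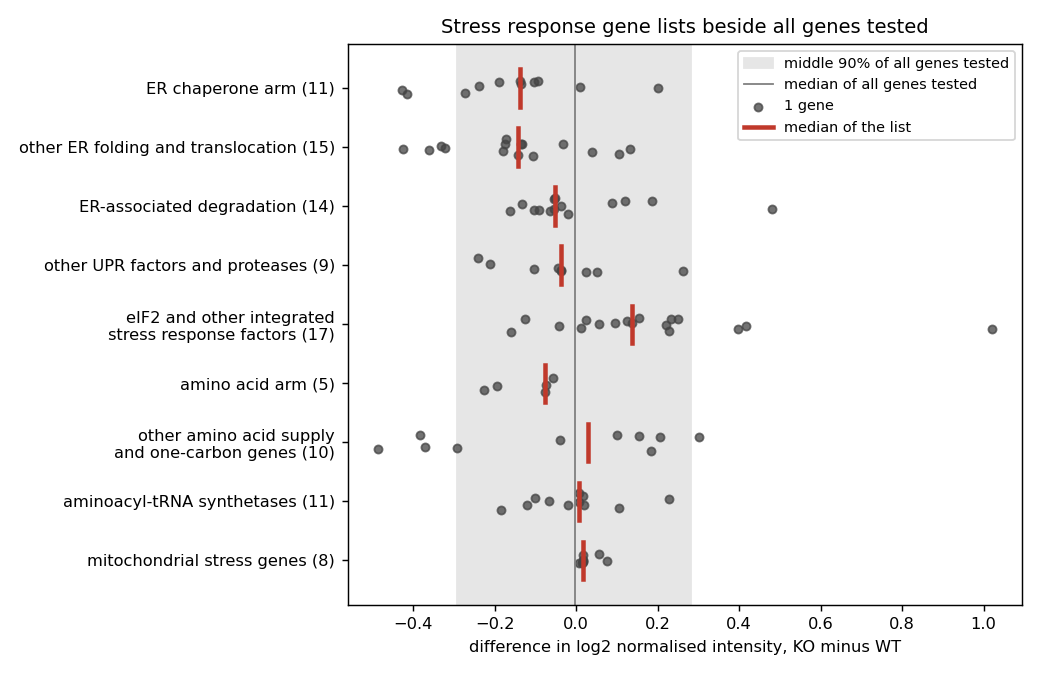
Difference in log2 normalised intensity, KO minus WT, of each tested gene in 9 lists (points, with the number tested in brackets) and the median of each list (red). The grey band runs between the 5th and 95th percentile of all genes tested, -0.29 to 0.28. Chaperone and other ER folding genes have medians of -0.14, and eIF2 and integrated stress factors one of 0.14.

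Markers of other cell types that a whole muscle holds were read beside these results. Of all genes tested, 50.6% had a difference below 0, and 6.42% were lower in KO without overlap. Of 10 fibroblast and matrix markers 9 were tested, 8 had a difference below 0 and the median was -0.11, with the smallest p values at Lum, a matrix proteoglycan, at -0.36 (SE 0.12, limma adjusted p = 0.558) and Dcn at -0.20 (SE 0.11). KO and WT values of Lum did not overlap, and the collagen genes Col1a1 and Col3a1 were both at -0.06. Their summed linear intensity was 22150 to 23460 in KO and 23400 to 26330 in WT. Of 10 macrophage and leukocyte markers 8 were tested, all below 0 with a median of -0.13. Cd52 at -0.32 (SE 0.12, limma adjusted p = 0.597) and the complement gene C1qa at -0.39 (SE 0.15, limma adjusted p = 0.623) were lower in KO without overlap. The sum of these markers was 2144 to 2659 in KO and 2454 to 3032 in WT, with Cd68 and Ptprc not tested. Adipocyte markers summed to 13510 to 14700 in KO, against 14360, 13870 and 29030 in WT 1, WT 2 and WT 3, with Fabp4 not tested. The 7 tested were all below 0 with a median of -0.54. Their median deviation from the mean over all arrays was -0.44, -0.17 and -0.31 in KO, and -0.09, -0.85 and 1.82 in WT. On that measure WT 3 was the highest array and WT 2 the lowest. In pair 2, KO was higher for Plin1, Adipoq, Cidec and Pparg, and lower for Lep, Lpl and Car3. Lep, detected on 5 arrays, was lower in KO without overlap, at -0.54 (SE 0.22, limma adjusted p = 0.658). Its difference in pair 2 was only -0.04. Cartilage and bone markers, of which 4 of 8 were tested, summed to 505 to 1374 in KO and 542 to 1553 in WT, and Col9a1, Bglap, Runx2 and Sp7 were not tested. Endothelial markers were all below 0, with a median of -0.08 over 8. The part of any of these cells in the lower ER folding genes was not tested.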

How the data were processed

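Per the labels' protocols, Trizol served to extract RNA from 6 quadriceps, 3 KO and 3 WT, and an Ambion MessageAmp kit to label it with Cy3. The sources used here name neither scanner nor software. For each probe the authors' deposited table gives, per the file headers, a mean bead intensity with its standard error and number of beads, and a detection p-value. A second deposited table holds an intensity per probe with equal quartiles in all 6 columns. Probes were named from the platform annotation: 34885 of 45281 carried 1 symbol, 18 several and 10378 none.

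Intensities were normalised with neqc of limma 3.58.1 in R 4.3.3 (normexp, offset 16, quantile, log2). The probe with the highest mean signal stood for its gene. Genes needed a detection p under 0.05 on 3 or more arrays, which left 13452 genes, 2962 of them probes without a symbol. A two-sided limma test (lmFit, eBayes) set KO against WT. Its p-values were adjusted over these genes by Benjamini and Hochberg's method, with a threshold of 0.05, and 95% intervals came from the same fit. The number of arrays limits the precision.

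The series' design text says that each KO mouse had a WT littermate, and the titles number the mice of each group, but neither says that equal numbers mark a litter. For arrays of equal number, the correlation of deviations around their groups was 0.34, 0.22 and 0.46, all over 0.1, so these were taken as pairs. Arrays of unequal number correlated by -0.41 to 0.24, and the highest of these, KO 1 with WT 2, exceeded that of pair 2. That value is also over 0.1, so the correlations cannot settle the pairing. They come from the same values as the pair differences and the block fit. The members and lists were chosen with earlier results of these data known. Every member was accounted for. Of each related pathway list, genes past the threshold were named, or else the 2 with the smallest p. Cell type markers named with values were chosen after these were seen. Lists are described by counts and medians, with no test of a list. Promoter sequences are those of RefSeq, GRCm38.p6, and were read with pandas 2.3.3.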

Additional observations from a re-analysis of the deposited data

How the results depend on the processing

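No member was called under any of the 16 other settings, and 15 of the 22 kept the sign of their difference under all of them. Over all genes, limma called 18 higher and 8 lower with the littermate block, 23 and 8 without background correction and in the authors' second table, and 35 and 11 with array weights. It called 34 and 10 with trended, robust moderation, 0 and 1 with no filter on dim probes, and 9 higher without pair 3. Without each array in turn it called 0 to 15 higher and 1 to 10 lower. Members at an unadjusted p under 0.05 numbered 8 with the replicate block and with no filter, and 3 to 6 without each array in turn. The block changed no call of a member.

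The amino acid arm had 3 members below 0 with array weights or without pair 3, and 2 to 5 without each array in turn, where its median was -0.24 to 0.028. Differences that changed sign were those of Psat1 and Phgdh at 0.0065 and 0.038 with array weights and 0.064 and 0.17 without pair 3. Calr was at -0.037 with median centring and at -0.0036 without background correction and in the authors' second table. Without each array in turn the range was -0.26 to 0.051 for Ddit3, -0.11 to 0.028 for Psat1, -0.25 to 0.12 for Phgdh and -0.25 to 0.033 for Mthfd2. It was -0.16 to 0.013 for Hspa5, -0.18 to 0.29 for Calr, -0.24 to 0.045 for Sdf2l1 and -0.036 to 0.16 for Lonp1. The cause of these changes was not tested. A slide block was not run, because the column headers name no slide. The 13 members below the filter, with Hspa5 and Sdf2l1 near background, limit what can be said of sensors and BiP.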
